A study of Mus musculus with 10 samples.

Results

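The comparison set the liver of mice refed to day 7 of a weekly feeding cycle (RF, n = 3, replicates 1 to 3) against that of mice fed ad libitum (AL, n = 3, replicates 2 to 4). The 6 libraries were taken by their labels from the 10 of the series, and the 12789 genes that passed a filter on low counts were tested, of 17359 in the table. Mice of both groups received a high-fat diet, which was used to make them obese. For RF mice, food was cut by 50% on days 1 and 4 of the cycle and by 70% on days 2 and 3, and was free on days 5 to 7. The 4 other libraries came from day 3 of that cycle (LC, low calorie). They entered the same fit, where they bear on the estimate of spread behind every call, and their levels are given for reference. No genotype, strain, age, sex or hour of collection was given in the sources used here. The labels name no animals, so a p-value here reflects only how far these libraries scatter, and that scatter may be technical.

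The liver makes fatty acids, cholesterol and plasma proteins after meals, and burns fat and makes ketone bodies when food is short. Insulin and dietary sugar switch on lipid synthesis through the transcription factors SREBP1c and ChREBP, while low cell cholesterol activates SREBP2. Fasting and fatty acids activate PPARα, the nuclear receptor that controls fat oxidation genes. A long high-fat diet fills hepatocytes with lipid droplets and raises stress and detoxification programmes, so the question of the comparison was which of these differed from AL after the return to free feeding.

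Library totals lay between 14179742 and 15899479 expected counts at AL and between 14601704 and 15502191 at RF. Levels are given in replicate order as CPM, the expected count scaled to a common library total with TMM factors (trimmed means of log ratios between libraries). The hepatocyte markers were abundant in all 6 libraries, with albumin (Alb) at 50760, 58785 and 67104 CPM at AL and 50338, 48978 and 51706 CPM at RF. Ddx3y, a gene of the Y chromosome, lay between 74.3 and 152 CPM over the 10 libraries. On the first component of log2 CPM over the 6 libraries, which held 29.4% of the variance, AL lay between -29.6 and -12.2 and RF between 10.6 and 23.8, without overlap. AL replicate 2 stood apart on the second component, at 39.4 against -18.1 to -0.21 for the 5 others. The root mean square log2 difference between an AL and an RF library was 0.46 to 0.57, against 0.44 to 0.55 between AL libraries and 0.44 to 0.51 between RF libraries. These ranges overlapped, but the upper end between AL libraries came from AL replicate 2, at 0.54 and 0.55 from replicates 3 and 4. AL replicates 3 and 4 were 0.44 apart, less than any AL library was from any RF library. AL and LC libraries were 0.60 to 0.83 apart.

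**Figure D1:**
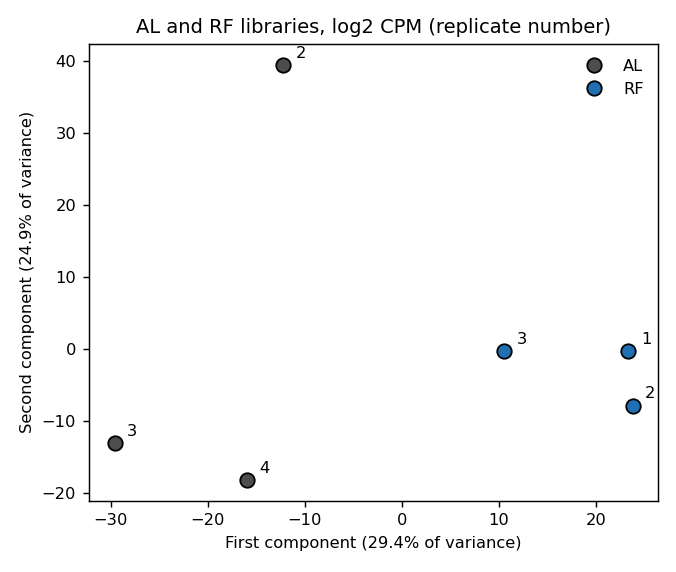
First and second components of log2 CPM for the 3 AL and 3 RF libraries; each point is 1 library with its replicate number, and the axes are unitless scores. AL and RF do not overlap on the first component, and AL replicate 2 lies apart on the second, at 39.4.

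Few single genes separated RF from AL. By edgeR's quasi-likelihood test with Benjamini-Hochberg adjustment, 7 of 12789 genes (0.0547%) had an adjusted p below 0.05, of which 2 were higher at RF (0.0156%) and 5 lower (0.0391%). At an unadjusted p below 0.05 there were 1381 genes (10.8%), 782 higher (6.11%) and 599 lower (4.68%). Without AL replicate 2 there were 983 higher and 806 lower. The counts were 480 and 407 without AL replicate 3, and 665 and 535 without AL replicate 4. They were 677 and 439 without RF replicate 1, 605 and 356 without RF replicate 2, and 644 and 553 without RF replicate 3. Counts of list members with 1 library left out, given below, are to be read beside these. In 1200 genes (9.38%) every RF library lay above every AL library, and in 1223 (9.56%) every one lay below. DESeq2 called 100 genes (0.782%), of which 40 (0.313%) were higher and 60 (0.469%) lower. The count from limma voom, in which libraries are weighted, was 50 (0.391%), with 20 (0.156%) higher and 30 (0.235%) lower. DESeq2 and limma both called 18 higher and 28 lower, and all 7 edgeR calls were among them. For comparison, edgeR called 4034 genes (31.5%) at LC against AL, a comparison that shares the AL libraries.

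The size of difference that 3 libraries a group could show was limited. The 95% interval of the log2 fold change lay within a 2-fold change either way for 9939 genes (77.7%) and within a 1.5-fold change for 5632 (44.0%). For the remaining genes a 2-fold change in at least one direction was not excluded at this depth and number of libraries. Precision followed the level. The median distance from the fold change to the bound of its interval was 0.78 on the log2 scale under 5 CPM, where 37.9% of intervals lay within 2-fold, and 0.38 from 5 to 50 CPM, where 91.8% did. Above 50 CPM it was 0.33, and 91.9% lay within 2-fold. All 7 called genes lay between 5 and 50 CPM. The median size of the log2 fold change over all genes was 0.19, and 275 genes (2.15%) reached a 2-fold difference.

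**Figure D2:**
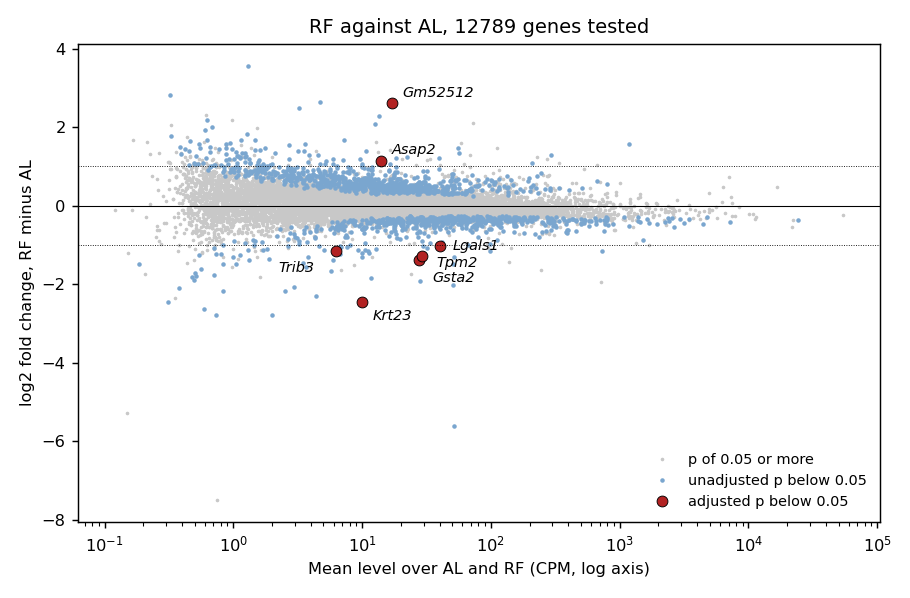
Log2 fold change of RF against AL for each of the 12789 genes tested (vertical axis) by its mean CPM over the 6 libraries (horizontal log axis); dotted lines mark 2-fold. The 7 called genes are red and named, and the spread of fold changes widens below 5 CPM.

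Gm52512 and Asap2 rose. Gm52512 (NCBI gene 115489454) is a predicted protein-coding gene model in RefSeq, with no established function. Its level was 4.75, 5.31 and 4.14 CPM in the AL libraries and 28.7, 32.4 and 26.2 CPM in the RF libraries. All 3 RF libraries lay far above the AL ones, a log2 fold change of 2.62 (SE 0.22, 95% interval 2.14 to 3.10, edgeR adjusted p = 0.00023). At LC it averaged 6.86 CPM, and RF lay above LC by 2.08 (edgeR adjusted p = 9.0e-05). It was the gene whose call held in each of 10 fits that left out 1 library. Its neighbours on the chromosome in RefSeq, the nuclear receptor gene Nr4a2 and the mitochondrial glycerol phosphate dehydrogenase gene Gpd2, had log2 fold changes of 0.50 (edgeR adjusted p = 0.89) and 0.36 (0.52). Asap2 encodes a GTPase-activating protein for Arf proteins, which steer membrane traffic and the actin cortex. It was at 10.2, 8.90 and 7.38 CPM at AL and at 22.4, 19.3 and 16.3 CPM at RF, without overlap. The log2 fold change was 1.13 (SE 0.17, 95% interval 0.77 to 1.49, edgeR adjusted p = 0.034). LC, at 18.1 CPM, was close to RF (RF minus LC 0.09, edgeR adjusted p = 0.69). Of the 29 Arf regulator genes tested, Asap2 was the 1 called, and the list's median of 0.07 was near that of all genes, 0.01. The deposited counts of Gm52512 and Asap2 were not whole numbers in any of the 10 libraries, so the counting had divided reads between them and other features.

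**Figure D3:**
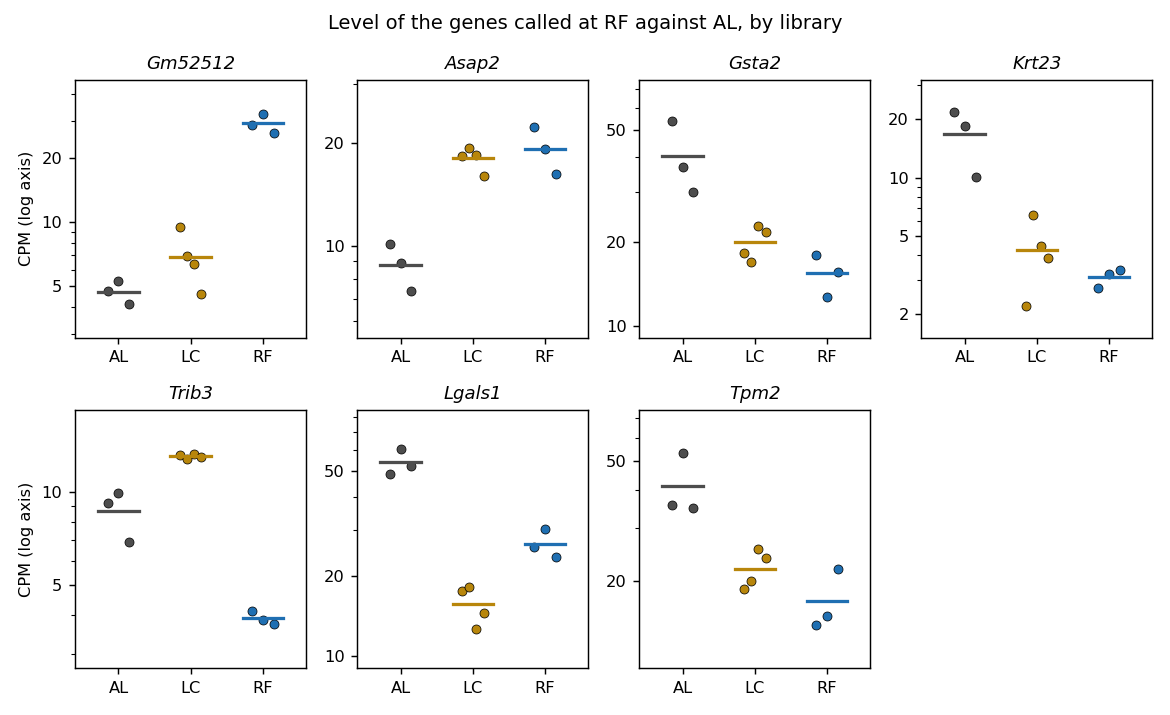
CPM (log axis) of the 7 genes called at RF against AL in each AL, LC and RF library; points are libraries and bars are group means. In every panel the AL and RF libraries are separate, and Trib3 is the gene whose LC libraries lie above both.

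The 5 genes that fell were Gsta2, Krt23, Trib3, Lgals1 and Tpm2. The sequences around the start sites of 3 of them, and of Gsta1, are shown. Gsta1 and Gsta2 resemble each other in sequence, and ATF4, which is known to induce Trib3, acts through a short motif. Krt23 is shown because its window held a match to a C/EBP site, and an action of C/EBP factors on it was not tested. Each runs from 250 bases before the RefSeq start to 30 after it, in build GRCm38.p6, which is older than the build of the deposited files. RefSeq gave an entry for 5 of the 7 called genes. In Gsta1 (chr9:78230419-78230698, plus strand) and Gsta2 (chr9:78347116-78347395, minus strand) capitals mark the longest run that both windows share, 29 bases.
Gsta1: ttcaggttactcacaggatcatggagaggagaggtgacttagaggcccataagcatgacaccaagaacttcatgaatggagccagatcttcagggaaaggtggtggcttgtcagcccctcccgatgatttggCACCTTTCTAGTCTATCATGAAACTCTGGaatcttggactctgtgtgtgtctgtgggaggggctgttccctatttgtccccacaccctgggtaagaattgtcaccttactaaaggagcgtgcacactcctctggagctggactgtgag
Gsta2: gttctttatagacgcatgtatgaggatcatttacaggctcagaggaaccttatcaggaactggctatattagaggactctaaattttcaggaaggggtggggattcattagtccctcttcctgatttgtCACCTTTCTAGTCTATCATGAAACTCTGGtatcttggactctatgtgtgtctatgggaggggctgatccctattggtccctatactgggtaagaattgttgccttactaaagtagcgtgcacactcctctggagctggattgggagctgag
The 2 windows were identical at 79.18% of 269 aligned bases. In Trib3 (chr2:152344031-152344310, minus strand) capitals mark a match to TGATGNAAN, the form of the C/EBP-ATF response element, on either strand. In Krt23 (chr11:99493091-99493370, minus strand) they mark a match to TTGCNNAA, the form of a C/EBP site.
Trib3: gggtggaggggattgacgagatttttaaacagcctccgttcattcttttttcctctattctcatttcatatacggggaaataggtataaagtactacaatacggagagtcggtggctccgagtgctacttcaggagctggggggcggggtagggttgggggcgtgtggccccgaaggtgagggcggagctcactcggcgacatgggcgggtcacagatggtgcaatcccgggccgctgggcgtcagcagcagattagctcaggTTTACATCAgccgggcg
Krt23: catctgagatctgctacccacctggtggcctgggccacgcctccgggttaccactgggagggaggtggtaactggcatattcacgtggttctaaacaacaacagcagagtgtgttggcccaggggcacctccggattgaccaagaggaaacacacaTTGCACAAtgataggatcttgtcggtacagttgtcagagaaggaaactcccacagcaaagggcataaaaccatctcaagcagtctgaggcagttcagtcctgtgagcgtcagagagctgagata
TGATGNAAN matched 3.793% of all 32851 windows of this length, and 7 of 25 windows of the ATF4 list described below. TTGCNNAA matched 10.36%. A match describes letters only, and no binding was measured. The last 30 bases of the Trib3 window were found whole in no GENCODE transcript of the gene, so this window may not hold the start used in liver.

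Gsta2 (NCBI gene 14858) encodes an alpha class glutathione transferase, which conjugates electrophiles and lipid peroxidation products. It was at 53.9, 36.8 and 30.0 CPM at AL and at 17.8, 12.7 and 15.7 CPM at RF, a log2 fold change of -1.39 (SE 0.21, 95% interval -1.83 to -0.94, edgeR adjusted p = 0.034). Gsta1, its near copy, was at 9.71, 5.15 and 7.17 CPM at AL and at 2.42, 1.40 and 0.67 CPM at RF. That difference, -2.30 (SE 0.38), missed the threshold (edgeR adjusted p = 0.052). Neither gene overlapped between the groups. Because the counting may divide reads between the 2 genes, the sum of Gsta1, Gsta2 and the related model Gm3776 was also taken. It was 70.8, 43.7 and 40.6 CPM at AL and 21.0, 15.2 and 17.2 CPM at RF, again with no overlap. At LC it was 19.2 to 24.6 CPM.

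Krt23 (NCBI gene 94179) encodes a type I keratin of the epithelial cytoskeleton, known to be induced in injured and fatty liver. It was at 21.9, 18.5 and 10.1 CPM at AL and at 2.70, 3.20 and 3.34 CPM at RF, the largest of the 7 changes downward (log2 fold change -2.44, SE 0.35, 95% interval -3.20 to -1.68, edgeR adjusted p = 0.034). The RF libraries lay close together and the AL libraries spread over more than the whole RF range. Lgals1, which encodes galectin-1, a sugar-binding protein of stroma and stressed cells, was at 48.9, 60.6 and 52.2 CPM at AL and at 25.7, 30.1 and 23.5 CPM at RF (-1.03, SE 0.16, 95% interval -1.36 to -0.69, edgeR adjusted p = 0.034). Tpm2, which encodes beta-tropomyosin of actin filaments, was at 35.9, 53.5 and 35.0 CPM at AL and at 14.2, 15.2 and 21.9 CPM at RF (-1.27, SE 0.20, 95% interval -1.71 to -0.84, edgeR adjusted p = 0.043). All 3 were also lower at LC than at AL, at 4.24 CPM for Krt23, 15.7 for Lgals1 and 22.0 for Tpm2, in a comparison that uses the same AL libraries. Lgals1 was higher at RF than at LC by 0.75 (edgeR adjusted p = 0.0046), so its RF level lay between the other groups. RF minus LC was -0.46 for Krt23 and -0.36 for Tpm2, neither past the threshold (edgeR adjusted p = 0.36 and 0.20).

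Trib3 (NCBI gene 228775) encodes a pseudokinase that is induced by ATF4 under amino acid or endoplasmic reticulum stress and that dampens AKT signalling. It was at 9.20, 9.91 and 6.90 CPM at AL and at 4.12, 3.86 and 3.75 CPM at RF (log2 fold change -1.14, SE 0.18, 95% interval -1.52 to -0.76, edgeR adjusted p = 0.034). LC went the other way, at 13.0 CPM, above AL by 0.59 (edgeR adjusted p = 0.012) and above RF, with RF minus LC at -1.73 (edgeR adjusted p = 9.0e-05). Of the 24 tested genes of the ATF4 integrated stress response, Trib3 was the 1 called. The list's median was -0.15, and 2 members (8.33%, against 4.68% of all genes) were lower at an unadjusted p below 0.05. None was higher at that p, and the share of all genes in either direction was 10.8%. The second lower member was the stress sensor gene Sesn2 (-0.82, SE 0.32). The highest member stood at 1.07. Without AL replicate 2 the median was 0.0046 with 5 members lower, and the count was 1 without AL replicate 3 or RF replicate 1. Atf4 itself had a 95% interval of -0.39 to 0.32, and Ddit3, which encodes CHOP, one of -0.93 to 0.22. Asns, which encodes asparagine synthetase, was too scattered to read, at 4.89, 1.79 and 0.41 CPM at AL, with an interval of -1.60 to 1.32.

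Apart from Gm52512, each called gene lost its call in 6 to 8 of the 10 fits that left out 1 library. With AL replicate 3, LC replicate 3, LC replicate 4, RF replicate 1 or RF replicate 2 left out, Gm52512 was the 1 gene still called. Asap2 was also lost when AL replicate 4 was left out. The signs of the 7 fold changes were the same in every one of these fits. When the AL and RF libraries were fitted alone, Gm52512, Krt23 and Lgals1 were still called. The other 4 lost their call there at fold changes close to those above, with edgeR adjusted p-values of 0.10 for Asap2, 0.11 for Gsta2, 0.11 for Trib3 and 0.11 for Tpm2. With the replicate number as a block, Gm52512, Krt23 and Tpm2 were still called, and Asap2, Gsta2, Trib3 and Lgals1 were not.

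Genes short of the threshold were named by the smallest p among those whose AL and RF groups did not overlap. On the higher side their edgeR adjusted p-values ran up to 0.15. Higher at RF were 2 transporter genes, the sulphate and anion carrier family gene Slc26a10 and the mitochondrial carrier gene Slc25a30. Slc25a30 was at 3.93, 4.99 and 5.59 CPM at AL and at 22.7, 27.0 and 11.4 CPM at RF (2.07, SE 0.33, edgeR adjusted p = 0.053), while LC averaged 2.07 CPM. Zfp36, whose product tristetraprolin speeds the decay of inflammatory mRNAs, was at 146, 184 and 199 CPM at AL and at 317, 315 and 305 CPM at RF (0.82, SE 0.16, edgeR adjusted p = 0.10). Inhba, which encodes the activin A subunit, was at 3.78, 2.58 and 4.00 CPM at AL and 14.0, 12.6 and 6.76 CPM at RF (1.68, SE 0.34, edgeR adjusted p = 0.14). Also in this group were Oit3, the complement regulator gene Cd55 (0.61), the Hes family transcription factor gene Hes6 (0.68) and the corepressor gene Rcor3 (0.99). Nhsl2 (1.19, edgeR adjusted p = 0.15) was named instead because DESeq2 and limma voom both called it, and it did not overlap either. For the other genes the lack of overlap was set by the rule. LC was called above AL for Slc26a10, Oit3, Cd55, Inhba, Rcor3 and Nhsl2, but not for Zfp36 or Hes6. For Slc25a30, LC was called below AL (-1.21, edgeR adjusted p = 0.019). That comparison shares the AL libraries.

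The genes named by this rule on the lower side had varied roles. Sqstm1, which encodes the autophagy receptor p62, was at 295, 320 and 361 CPM at AL and 205, 201 and 219 CPM at RF (-0.64, SE 0.13, edgeR adjusted p = 0.12). Gabarapl1, an autophagosome gene of the ATG8 family, was at 246, 303 and 356 CPM at AL and 192, 152 and 174 CPM at RF (-0.81, SE 0.15, edgeR adjusted p = 0.10). Cfd, which encodes complement factor D (adipsin), showed the widest gap, from 111, 142 and 49.2 CPM at AL to 3.13, 1.60 and 1.47 CPM at RF. Its log2 fold change of -5.61 carried an SE of 0.83 and an edgeR adjusted p of 0.11, whereas DESeq2 gave an adjusted p of 5.2e-10. Cfd is best known from fat tissue. Of the 8 adipocyte markers listed, 4 were tested, with a median of -1.60. Cfd and Cidea (-2.78) did not overlap between the groups, which for Cfd the naming rule required. Lipe (-0.42) and Fabp4 (0.51) had intervals that included 0. Adipoq, Plin1 and Retn were at no more than 0.28 CPM in any AL or RF library. The summed level of the list was 90.3 to 178 CPM at AL, 29.2 to 35.7 CPM at RF and 23.3 to 48.5 CPM at LC. That sum includes Cfd itself, at 111, 142 and 49.2 CPM at AL, so it does not measure the other markers apart from Cfd. Any part of adipocytes in the level of Cfd was not tested. The other genes named were the oxysterol-binding protein gene Osbpl3 (-1.08), the P450 gene Cyp2d12 (-1.12), the pirin gene Pir (-0.79) and the calcineurin regulator gene Rcan2 (-1.23). LC also lay below AL, in a comparison that shares the AL libraries, at 183 CPM for Sqstm1, 164 for Gabarapl1 and 8.77 for Cfd. The edgeR adjusted p-values of LC against AL were 0.00050, 0.00095 and 0.0055. LC minus AL was -0.70 for Osbpl3, -1.57 for Cyp2d12, -0.41 for Pir and -1.75 for Rcan2, each past the threshold.

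Lipid synthesis genes lay higher at RF, but no member was called. Of 22 fatty acid synthesis genes, 5 had an unadjusted p below 0.05 (22.7%, against 10.8% of all genes), all higher, and 20 had a positive fold change. The list's median log2 fold change was 0.36, against 0.01 over all genes. The fatty acid synthase gene Fasn was at 668, 447 and 657 CPM at AL and at 901, 3416 and 972 CPM at RF. All RF libraries exceeded all AL libraries, and RF replicate 2 was far above the rest (1.58, SE 0.53, edgeR adjusted p = 0.37). Acaca, which encodes acetyl-CoA carboxylase 1, was at 90.6, 94.6 and 113 CPM at AL and at 129, 227 and 150 CPM at RF (0.76, SE 0.21, edgeR adjusted p = 0.25). Pnpla3, a lipid droplet hydrolase gene driven by SREBP1c, was at 1.48, 0.55 and 1.79 CPM at AL and at 8.25, 14.4 and 1.61 CPM at RF (2.64, SE 0.67, edgeR adjusted p = 0.24). RF replicate 3 was thus within the AL range. Elovl6, a fatty acid elongase gene, had a fold change of 1.08 (SE 0.45), and Scd1, the desaturase gene, of 0.74, with an interval of -0.23 to 1.71. Without RF replicate 2 the fold change of Fasn was 0.67, the list's median was 0.25, and 2 members had an unadjusted p below 0.05. Without AL replicate 3 the count was 2. Without AL replicate 4 it was 8, with a median of 0.69.

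Cholesterol synthesis and uptake genes also lay higher, with a median of 0.57 and 23 of 24 members positive, of which 3 had an unadjusted p below 0.05. That share, 12.5%, was close to the 10.8% of all genes in either direction. All 3 were higher, and 6.11% of all genes were higher at that p. The 3 included Stard4, a sterol carrier gene (0.52, SE 0.17), and Insig1, which retains SREBPs in the endoplasmic reticulum (0.46, SE 0.18). Their edgeR adjusted p-values were 0.32 and 0.39. Stard4 was at 107, 133 and 125 CPM at AL and at 167, 214 and 145 CPM at RF, without overlap, and RF replicate 2 was the highest. Without RF replicate 2 the median was 0.33 and no member had an unadjusted p below 0.05, and without AL replicate 2 the median was 0.36. Without AL replicate 4 or RF replicate 3, 4 members had such a p.

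**Figure D4:**
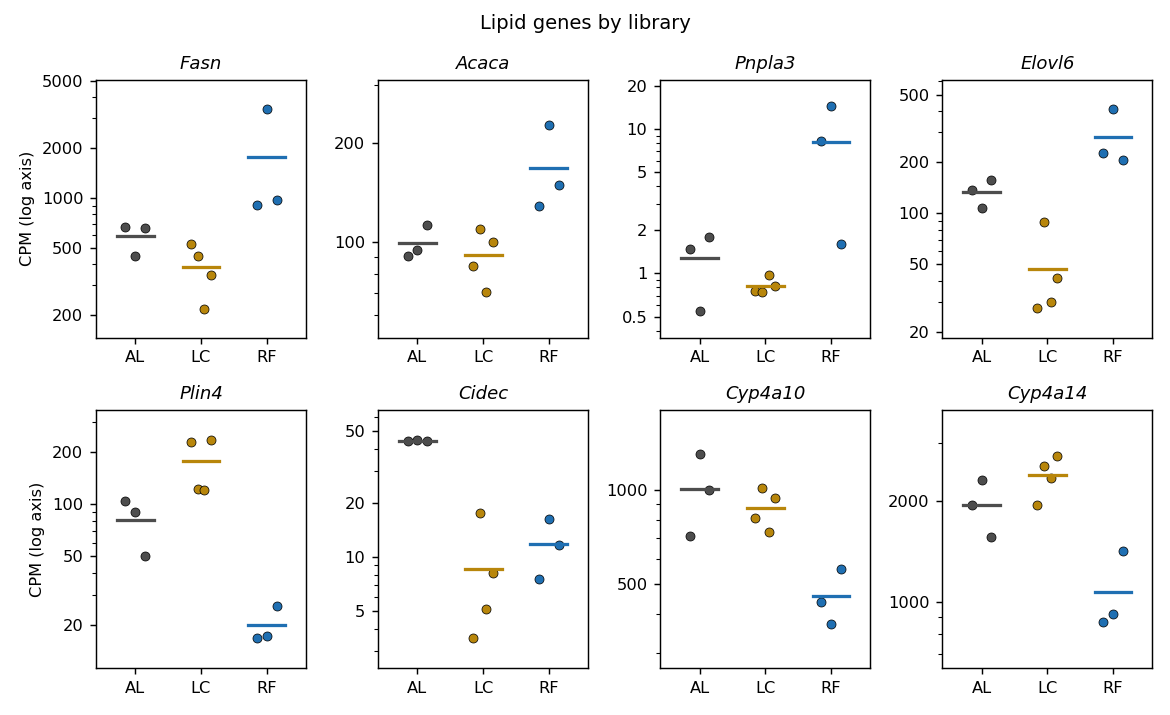
CPM (log axis) of 8 lipid genes in each AL, LC and RF library; points are libraries and bars are group means. RF replicate 2 is the highest of all libraries for Fasn, Acaca, Pnpla3 and Elovl6, and all RF libraries lie below all AL libraries for Plin4, Cidec, Cyp4a10 and Cyp4a14.

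Lipid droplet genes lay lower at RF. Of 21 tested, 7 had an unadjusted p below 0.05 (33.3%, against 10.8% of all genes), all lower, and the median was -0.31. Plin4, which encodes a perilipin that coats droplets, was at 104, 90.1 and 50.0 CPM at AL and at 16.7, 17.3 and 25.8 CPM at RF (-2.03, SE 0.36, edgeR adjusted p = 0.12). At LC it averaged 178 CPM, above AL (1.13, edgeR adjusted p = 0.028) and above RF (RF minus LC -3.16, edgeR adjusted p = 0.00095). Cidec, named here because of its values and not by rule, fuses droplets into larger ones. It was at 44.5, 44.6 and 44.1 CPM at AL and at 7.54, 16.2 and 11.7 CPM at RF (-1.91, SE 0.50, edgeR adjusted p = 0.27). Its relative Cidea was at 2.30, 4.45 and 3.72 CPM at AL and at 0.50, 0.73 and 0.27 CPM at RF (-2.78, SE 0.70, edgeR adjusted p = 0.21). Pnpla2, which encodes the triglyceride lipase ATGL, had a fold change of -0.59 (SE 0.18). The counts lay between 6 and 8 when any 1 AL or RF library was left out, and the median was -0.20 without AL replicate 3. The genes of glycerolipid synthesis, which build triglyceride, had a median of -0.15, which was -0.019 without AL replicate 2, and none of 14 at an unadjusted p below 0.05.

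PPARα targets and fat oxidation genes were also on the low side. Of 23 ketogenesis and PPARα target genes, 8 had an unadjusted p below 0.05 (34.8%, against 10.8% of all genes), all lower (median -0.34). Cd36, Plin2 and Hilpda belong to this list and to the lipid droplet list, so the 2 lists are not separate. The omega-hydroxylase gene Cyp4a10 was at 711, 1309 and 1004 CPM at AL and at 437, 371 and 559 CPM at RF (-1.15, SE 0.22, edgeR adjusted p = 0.10). Cyp4a14 was at 1957, 2325 and 1566 CPM at AL and at 873, 921 and 1419 CPM at RF (-0.86, SE 0.21, edgeR adjusted p = 0.20). Reads of these near-identical Cyp4a genes may be shared. Angptl4, a secreted inhibitor of lipoprotein lipase, was at 507, 510 and 427 CPM at AL and at 253, 295 and 350 CPM at RF (-0.69, SE 0.17, edgeR adjusted p = 0.21). The intervals of Ppara and Cpt1a were -0.52 to 0.23 and -0.46 to 0.36. All 20 genes of mitochondrial fatty acid oxidation had negative fold changes, between -0.37 and -0.05 (median -0.25), and 3, Crat, Cpt2 and Acadm, had an unadjusted p below 0.05 (15.0%). For ketogenesis and PPARα targets the count was 3 when AL replicate 3 or RF replicate 2 was dropped. It was 5 when AL replicate 4 or RF replicate 1 was dropped, 9 without RF replicate 3 and 10 without AL replicate 2. For fat oxidation it was 11 with AL replicate 2 dropped, and 1 with AL replicate 3, RF replicate 1 or RF replicate 2 dropped. Lower genes over the whole table numbered 806 without AL replicate 2 and 407 without AL replicate 3. They numbered 439 without RF replicate 1 and 356 without RF replicate 2. The median of the fat oxidation list was -0.13 without AL replicate 3.

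Glutathione transferase and NRF2 target genes lay lower at RF. Of 22 glutathione transferase genes, 6 had an unadjusted p below 0.05 (27.3%, against 10.8% of all genes), all lower, with a median of -0.20. The 6 include the called gene Gsta2 and its near copy Gsta1, between which the counting may divide reads. Gsta4 was at 74.8, 84.6 and 89.9 CPM at AL and at 51.1, 48.3 and 62.9 CPM at RF (-0.62, SE 0.17, edgeR adjusted p = 0.24). Of 18 NRF2 targets, 4 (22.2%) were lower at an unadjusted p below 0.05, with a median of -0.14 that was -0.077 without AL replicate 4. The 4 included the heme oxygenase gene Hmox1 (-0.70, SE 0.20), the quinone reductase gene Nqo1 (-0.81, SE 0.25) and Taldo1 of the pentose phosphate pathway (-0.39, SE 0.13). Without AL replicate 4, 2 NRF2 targets were higher at that p and 5 lower, and without RF replicate 3, 1 was higher and 3 lower. Without AL replicate 2 the count for the transferases was 10 and their median -0.30. Without any other single AL or RF library 5 or 6 transferases were lower, and 1 was higher without AL replicate 4. Of 35 genes of P450 families 1 to 3, 2 were higher and 2 lower at that p (11.4%), with a median of -0.06 that became 0.06 when only library totals were used for scaling. Without AL replicate 2 this list had 8 members lower and a median of -0.21, and without AL replicate 3 its median was 0.050.

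Acute phase genes lay lower too. Of 23 tested, 7 had an unadjusted p below 0.05 (30.4%, against 10.8% of all genes), all lower (median -0.37). Il1rn, which encodes the interleukin 1 receptor antagonist, was at 8.82, 10.6 and 6.97 CPM at AL and at 2.56, 2.60 and 3.08 CPM at RF (-1.68, SE 0.48, edgeR adjusted p = 0.27). Lbp, which encodes the lipopolysaccharide-binding protein, was at 45.0, 42.8 and 36.3 CPM at AL and at 23.0, 18.0 and 31.1 CPM at RF (-0.78, SE 0.21). Saa1 was uneven, at 55.2, 16.1 and 22.7 CPM at AL and 13.4, 20.7 and 28.7 CPM at RF, with an interval of -1.86 to 0.70. The acute phase count was 4 without RF replicate 1, 2 without RF replicate 2 and 5 without AL replicate 2. It was 8 without AL replicate 3 and 10 without RF replicate 3. Without AL replicate 3 or RF replicate 1, 1 member was higher at that p. Of 20 endoplasmic reticulum chaperone genes 3 (15.0%) were lower at an unadjusted p below 0.05, among them Calr (-0.65, SE 0.17) and Pdia6 (-0.42, SE 0.13), and 6 had positive fold changes. The chaperone median was -0.10, and -0.00013 with library totals alone. Without RF replicate 1 it was -0.020 with 2 members higher and 2 lower. The count of lower members was 6 without AL replicate 4 (median -0.27) and 8 without RF replicate 3 (median -0.37). Of 17 heat shock genes 3 (17.6%) were lower, among them Hspb1 (-0.80, SE 0.24) and Dnajb1 (-0.60, SE 0.20), with a median of -0.19. This count was 6 without RF replicate 3 (median -0.34) and 1 without AL replicate 4, and the median was -0.086 without RF replicate 1.

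Genes of the proteasome and of the respiratory chain lay slightly lower at RF. Of 31 proteasome genes, 30 were negative, with a median of -0.19, and 8 had an unadjusted p below 0.05 (25.8%, against 10.8% of all genes). Psmd4 was at 171, 141 and 146 CPM at AL and at 121, 116 and 110 CPM at RF (-0.40, SE 0.13). Of 47 oxidative phosphorylation genes, 40 were negative, with a median of -0.15, and 8 (17.0%) were lower at an unadjusted p below 0.05, among them Ndufs3 of complex I (-0.36, SE 0.12). With library totals alone, which moved the median of all genes to 0.12, the medians of the 2 lists were -0.08 and -0.04. The proteasome count was 4 or 5 with AL replicate 4 or any 1 RF library dropped. The respiratory count was 3 to 5 with AL replicate 3, AL replicate 4, RF replicate 1 or RF replicate 2 dropped. It was 6 without RF replicate 3 and 10 without AL replicate 2. The 47 cytosolic ribosomal protein genes had a median of -0.07, which was 0.05 with library totals.

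No glucose, clock or interferon gene was called. The shares of these lists at an unadjusted p below 0.05 in either direction were near the 10.8% of all genes. They were 15.0% for glycolysis, 10.5% for gluconeogenesis and glycogen, 10.5% for the clock and 10.7% for interferon-stimulated genes. Except in the gluconeogenesis and glycogen list, all such members were higher, and 6.11% of all genes were higher at that p. Of 20 glycolysis genes 3 were higher at that p, led by Pfkfb3 (0.69, SE 0.18), which makes the activator fructose 2,6-bisphosphate, and the list's median was -0.03. Among 19 genes of gluconeogenesis and glycogen, Gys2, the liver glycogen synthase gene, was at 579, 428 and 412 CPM at AL and 290, 323 and 305 CPM at RF (-0.63, SE 0.21, edgeR adjusted p = 0.32). G6pc, which encodes glucose 6-phosphatase, had a fold change of 0.55 (SE 0.24, edgeR adjusted p = 0.44). Per2, a period gene of the clock, was at 92.3, 82.8 and 82.6 CPM at AL and at 122, 141 and 125 CPM at RF (0.59, SE 0.13, edgeR adjusted p = 0.16). Per1, by contrast, was split by RF replicate 1, at 46.1 CPM against 108 and 114 CPM in the other RF libraries. Of 28 interferon-stimulated genes 20 were positive and 3 were higher at an unadjusted p below 0.05, among them Stat2 (0.68, SE 0.20). The list's median was 0.17. Without RF replicate 3 the median was 0.080 and the count 1, and without AL replicate 2 the count was 5. None of 22 cell cycle genes had an unadjusted p below 0.05.

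Several central genes had intervals that included 0 and stayed within 2-fold, namely Igf1 (-0.33 to 0.32), Pck1 (-0.56 to 0.35), Alb (-0.57 to 0.12), Srebf1 (-0.19 to 0.83) and Hspa5 (-0.57 to 0.66). For others a 2-fold change was not excluded. Pdk4 was at 287, 374 and 371 CPM at AL and at 115, 392 and 427 CPM at RF, with an interval of -1.66 to 1.37. Igfbp1, an insulin-suppressed binding protein gene, was at 555, 611 and 506 CPM at AL and at 191, 800 and 693 CPM at RF, with an interval of -1.12 to 1.14. RF replicate 1 was the low library for both. Fgf21 had an interval of -0.85 to 1.42 and Cyp7a1, the rate-limiting enzyme of bile acid synthesis, one of -0.49 to 1.31.

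**Figure D5:**
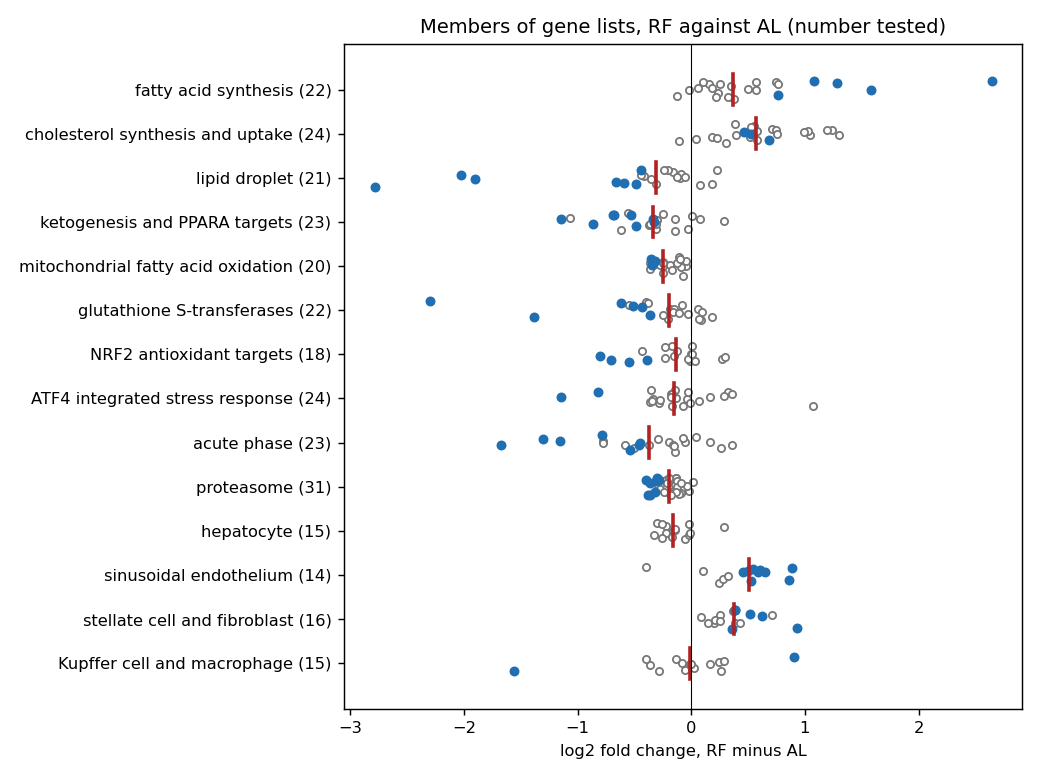
Log2 fold change of RF against AL (horizontal axis) for each tested member of 14 gene lists, with the number tested in brackets; filled points have an unadjusted p below 0.05, open points do not, and red bars are list medians. The adipocyte list, with Cfd at -5.61, is not drawn. Medians run from -0.37 for the acute phase list to 0.57 for cholesterol synthesis and uptake.

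Markers of nonparenchymal cells were measured because whole liver holds several cell types. Of 14 sinusoidal endothelium markers, 13 were positive and 9 had an unadjusted p below 0.05, all higher (64.3%, against 10.8% of all genes), with a median of 0.51. Their summed level was 327 to 335 CPM at AL and 413 to 490 CPM at RF, without overlap, and 458 to 473 CPM at LC. Oit3, a secreted protein gene of these cells, was at 11.05, 12.9 and 14.1 CPM at AL and at 22.1, 25.6 and 21.5 CPM at RF (0.86, SE 0.15, edgeR adjusted p = 0.063). Kdr, which encodes VEGF receptor 2, was at 31.6, 33.7 and 31.2 CPM at AL and at 44.2, 54.2 and 46.8 CPM at RF (0.59, SE 0.15, edgeR adjusted p = 0.24). Lyve1 was the 1 negative member (-0.40). The count was 5 without RF replicate 2 and 8 or 9 without any other single AL or RF library. In bulk tissue, more cells of a type cannot be told apart from more RNA per cell.

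All 16 stellate cell and fibroblast markers were positive (median 0.37), and 6 had an unadjusted p below 0.05 (37.5%), among them Lum (0.93, SE 0.31), Rgs5 (0.63, SE 0.23) and Colec11 (0.39, SE 0.14). Their summed level was 353 to 372 CPM at AL, 420 to 486 CPM at RF and 281 to 370 CPM at LC. The count was 2 without AL replicate 4, 1 without RF replicate 2 and 3 without RF replicate 3. It was 5 or 6 without any other single AL or RF library. Cholangiocyte markers had a median of 0.41 over 9 genes, and their sums overlapped, at 77.6 to 121 CPM at AL and 107 to 150 CPM at RF. Their median was 0.18 without RF replicate 2 and 0.70 without AL replicate 4, and 0 to 4 members had an unadjusted p below 0.05 with 1 library left out. Of 15 hepatocyte markers, 14 were negative and none had an unadjusted p below 0.05 (median -0.16). Kupffer cell and macrophage markers had a median of -0.01, with Timd4 higher (0.90) and Marco lower (-1.56) at an unadjusted p below 0.05. What part these marker levels have in the gene lists above was not tested.

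Transcript length moved with the fold change over the whole table. With the genes cut into 4 bins of like size, from the shortest transcripts to the longest, the median log2 fold change was -0.08, -0.01, 0.04 and 0.10. In the shortest bin 85 genes were higher and 254 lower at an unadjusted p below 0.05, and in the longest 326 were higher and 54 lower. Bins of GC content had medians between 0.00 and 0.02. After each library's trends with transcript length and GC share were taken out, no gene was called, among the 12599 genes with both values, which do not include Gm52512. The fold changes of the 6 other called genes stayed close to those above, at 1.03 for Asap2, -1.27 for Gsta2, -2.39 for Krt23, -1.13 for Trib3, -0.90 for Lgals1 and -1.26 for Tpm2, with edgeR adjusted p-values of 0.067 to 0.082. List medians after this removal were 0.30 for fatty acid synthesis, 0.53 for cholesterol, -0.26 for lipid droplets, -0.36 for ketogenesis and PPARα targets, -0.19 for fat oxidation, -0.11 for glutathione transferases, -0.16 for NRF2 targets, -0.34 for the acute phase, -0.14 for the proteasome, -0.07 for oxidative phosphorylation, 0.49 for sinusoidal endothelium and 0.31 for stellate cells. RNA integrity numbers were given in the labels only as a range over all samples, 6.6 to 8.5, so their part in the length trend was not tested.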

How the data were processed

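Liver RNA was enriched for poly(A) tails and sequenced on the BGI DNBSEQ platform without keeping strand, per the labels' protocols. The authors deposited a table of expected counts (estimated counts, of which 10.9% were not whole) and a table of FPKM, fragments scaled by transcript length and depth. HISAT, Bowtie2 and the build GRCm39 are named, with no role, per the submitters' processing notes. The sources used here name no counting program and no annotation. Estimated counts divide reads between near-identical genes, so the Gsta, Cyp4a, Cyp2d and Saa genes are less certain, and without strand overlapping genes cannot be told apart.

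Expected counts were rounded, filtered with filterByExpr, scaled by TMM and fitted over all 10 libraries, with a mean per group, in edgeR 4.0.16 (robust quasi-likelihood, R 4.3.3). Genes were called at an adjusted p (Benjamini-Hochberg, over all tested genes) below 0.05, and intervals and SE came from the same fit. Alternatives used DESeq2 1.42.0, limma 3.58.1 (voom with sample weights, or the authors' deposited FPKM as log2 values with a pseudocount of 1 or 0.1), other scalings and filters, the 6 libraries alone, the replicate number as a block, removal of length and GC trends (loess span 0.3, reference GENCODE and build GRCm38), and each library left out. The steps were tested on simulated counts.

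The comparison, 30 lists of liver functions, 14 lists of cell type markers, the tests and the rule for named genes were chosen with earlier results of these data known, so no list is independent evidence. The rule took every called gene, the 8 genes a direction with the smallest p short of the threshold (at least 5 CPM, no overlap, no clone symbols), the 6 a direction best called by both DESeq2 and voom, up to 3 members a list, and a set of core metabolic genes. Promoter windows came from RefSeq, GRCm38.p6. No coordinates were moved between builds.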

Additional observations from a re-analysis of the deposited data

How the results depend on the processing

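Against 2 genes higher and 5 lower, the counts were 40 and 60 with DESeq2, 20 and 30 with limma voom, 4 and 1 with library totals alone, 5 and 8 without the filter, 1 and 0 with either log2(FPKM + 1) or log2(FPKM + 0.1), 2 and 7 with the 6 libraries alone, of which 3 were among the 7, and 0 and 0 after length and GC trends were taken out. With 1 library left out, 1 to 4 genes were higher and 0 to 10 lower. The deviations of AL and RF libraries with the same number, 2 or 3, correlated at -0.04 and 0.01. With so few shared numbers and group means of 3 libraries, this cannot show whether same-numbered samples shared a batch or other pairing. With the replicate block 1 gene was higher and 4 were lower, and 3 of these 5 (Gm52512, Krt23 and Tpm2) were among the 7. The share of genes whose interval lay within a 2-fold change, 77.7%, was 80.7% with the 6 libraries alone, 74.2% with library totals, 80.1% with limma voom, 81.0% and 95.4% with log2(FPKM + 0.1) and log2(FPKM + 1), 83.9% for genes of at least 1 CPM, 58.3% with no filter, 75.9% with the replicate block and 79.2% with length and GC trends removed. With 1 library left out it was 70.8% to 79.0%. The cause of these differences was not tested.

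Among the named genes, 12 that were never close to the threshold changed sign in some fits. With 1 library left out the log2 fold change ran from -0.0052 to 0.52 for Srebf1, -0.30 to 0.077 for Pck1, -0.16 to 0.034 for Cpt1a, -0.46 to 0.25 for Pdk4, -0.031 to 0.77 for Cyp7a1, -0.12 to 0.095 for Igf1, -0.33 to 0.42 for Igfbp1, -0.65 to 0.97 for Asns, -0.13 to 0.061 for Atf4, -0.26 to 0.30 for Hspa5, -0.21 to 0.33 for Per1 and -0.89 to 0.11 for Saa1. With library totals alone the values were 0.015 for Pck1, 0.066 for Cpt1a, 0.10 for Igf1 and 0.070 for Atf4. With log2(FPKM + 0.1) and log2(FPKM + 1) they were 0.066 and 0.065 for Cpt1a, 0.11 and 0.11 for Igf1, -0.13 and -0.13 for Igfbp1, 0.47 and 0.12 for Asns, and 0.061 and 0.060 for Atf4. With limma voom they were 0.052 for Igf1, -0.15 for Igfbp1, 0.80 for Asns and 0.0022 for Atf4. The replicate block gave 0.022 for Cpt1a and 0.42 for Pdk4. Genes of at least 1 CPM gave 0.0013 for Igf1, and length and GC removal gave -0.13 for Per1. DESeq2 and size factors by relative log expression gave -0.0106 and -0.0106 for Igfbp1, and -0.00063 and -0.00046 for Per1. Counts of list members with 1 library left out were added after the data were seen.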

Other observations

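No member of the other lists of liver functions was called, apart from genes already named. In the list of ureagenesis and amino acid breakdown, 31 of 35 genes had negative fold changes (median -0.16). An unadjusted p below 0.05 was found for 4 (11.4%, against 10.8% of all genes in either direction). All 4 were lower, and 4.68% of all genes were lower at that p. The 4 included Hal, the histidine ammonia lyase gene (-0.68, SE 0.23), and Otc of the urea cycle (-0.39, SE 0.16). With 1 AL or RF library left out, 1 to 6 members were lower, the fewest without RF replicate 2. Of 22 lipoprotein and receptor genes, 5 (22.7%) were lower at an unadjusted p below 0.05, among them the apolipoprotein E gene Apoe, with a fold change of -0.37 (SE 0.15). This count was 1 without RF replicate 2, 2 without RF replicate 1 and 3 without AL replicate 2 or AL replicate 3. It was 4 without RF replicate 3 and 5 without AL replicate 4. The 19 bile acid genes had a median of -0.05, with the phospholipid exporter gene Abcb4 at -0.33 (SE 0.15) and the uptake transporter gene Slco1a1 at 0.45 (SE 0.20), and the 20 genes of insulin signalling and growth factors had a median of 0.00.

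Sex-biased liver genes, which follow growth hormone, passed an unadjusted p below 0.05 in either direction about as often as all genes (10.8%). Of all genes, 6.11% were higher and 4.68% lower at that p. Of 19 male-biased genes (median 0.09, with 7 negative) 2 (10.5%) were higher at an unadjusted p below 0.05, among them Nudt7, a peroxisomal coenzyme A hydrolase gene, at 553, 544 and 477 CPM at AL and 897, 796 and 746 CPM at RF (0.63, SE 0.21, edgeR adjusted p = 0.33). Of 11 female-biased genes tested (median -0.48, and -0.16 without AL replicate 4) 1 (9.09%), the thioesterase gene Acot3, was lower (-1.15, SE 0.37), against 3 lower without AL replicate 2. The actin and tropomyosin list of 27 genes had 3 members on each side and a median of 0.12, which was -0.01 without RF replicate 2. Tpm2 and Lgals1 were 2 of its 3 lower members. The keratin and galectin list, apart from the called genes Krt23 and Lgals1, had none of its 11 tested members at an unadjusted p below 0.05.

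Markers of other cell types passed the filter on low counts only in part. They were 4 of 12 for T and natural killer cells, 6 of 9 for B and plasma cells, 3 of 9 for neutrophils and 6 of 9 for smooth muscle. None of these had an unadjusted p below 0.05. Nor had the tested erythroid (5 of 8), pancreatic acinar (1 of 12) and skeletal muscle (2 of 10) markers. Of the 7 mesothelium markers 3 were tested, and 1 was higher at that p (median 0.82, and 0.39 without AL replicate 2). Acinar sums were 14.1 to 20.8 CPM at AL and 24.1 to 28.6 CPM at RF, without overlap. Erythroid sums were 474 to 716 CPM at AL and 325 to 1029 CPM at RF.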
